A study of Homo sapiens with 4 samples.

Results

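The genes described here are 10 chemokine genes of LN229 cells, an established human glioblastoma line: *IL8* (now named *CXCL8*), *CXCL1*, *CXCL2*, *CXCL3*, *CXCL5*, *CXCL6*, *CXCL12*, *CX3CL1*, *CCL2* and *CCL20*. They were found by gene symbol among 33096 probes per array and were represented by 12 probes. The genes were selected on the basis of this same contrast of *SOX2* knockdown with mock, so their differences between the groups are given as a description, without a test. LN229 cells grown in DMEM medium received siRNA, which brings about the breakdown of transcripts matching its sequence, either against *SOX2* or, in the mock group, against no target. *SOX2* encodes an HMG-box transcription factor of stem cells. Each group comprised 2 arrays (mock 1 and 2, *SOX2* knockdown 1 and 2), given in the study's methods as biological replicates. The arrays were 1-colour oligonucleotide arrays read by chemiluminescence. A single line limits these data as a model, and no other glioma line was analysed here.

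Chemokines are small secreted proteins that bind G protein-coupled receptors and direct the movement of cells along their gradients. CXC chemokines with an ELR motif, which include the products of *IL8*, *CXCL1*, *CXCL2*, *CXCL3*, *CXCL5* and *CXCL6*, act on CXCR1 and CXCR2 and attract neutrophils. CCL2 attracts monocytes through CCR2, CCL20 acts on CCR6, CXCL12 on CXCR4, and CX3CL1, which is made as a membrane-bound protein, on CX3CR1. Transcription of the ELR chemokines is known to be driven by NF-kappaB in response to IL1 and TNF, and gliomas are a known source of IL8 and CCL2.

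The 6 ELR chemokine genes lie in 1 cluster on chromosome 4, and each holds the same kappaB-type sequence shortly before its start. RefSeq promoter windows (GRCh38.p14, 250 bases before to 50 after the start) were given for 8 of the 10 genes, *CCL2* and *CX3CL1* not among them. The sequence GGAATTTCC, searched on both strands, was found in 6 of these 8 windows (*CXCL8*, *CXCL1*, *CXCL2*, *CXCL3*, *CXCL5* and *CXCL6*) and in 0.461% of all 35116 promoter windows. The stretches below run from 145 to 26 bases before the start and are shown because the genes that share this sequence differed in their signals. They are *CXCL8* at chr4:73740424-73740543 (plus strand), *CXCL3* at chr4:74038715-74038834 (minus strand), *CXCL2* at chr4:74099221-74099340 (minus strand), *CXCL1* at chr4:73869248-73869367 (plus strand), *CXCL5* at chr4:73998703-73998822 (minus strand) and *CXCL6* at chr4:73836533-73836652 (plus strand). All are written 5′ to 3′ on the strand of the gene. Capitals mark GGAATTTCC and, in *CXCL8*, the AP-1-type sequence TGANTCA.
CXCL8: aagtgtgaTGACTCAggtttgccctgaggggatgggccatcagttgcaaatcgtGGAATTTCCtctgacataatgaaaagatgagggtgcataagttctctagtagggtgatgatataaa
CXCL3: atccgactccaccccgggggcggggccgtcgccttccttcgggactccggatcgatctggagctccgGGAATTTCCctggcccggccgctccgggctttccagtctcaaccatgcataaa
CXCL2: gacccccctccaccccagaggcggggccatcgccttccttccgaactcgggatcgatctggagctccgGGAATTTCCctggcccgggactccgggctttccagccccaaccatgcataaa
CXCL1: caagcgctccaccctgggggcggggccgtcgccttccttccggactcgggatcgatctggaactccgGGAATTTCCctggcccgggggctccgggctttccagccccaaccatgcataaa
CXCL5: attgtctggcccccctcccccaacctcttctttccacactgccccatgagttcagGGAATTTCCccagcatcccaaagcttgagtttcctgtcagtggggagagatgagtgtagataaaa
CXCL6: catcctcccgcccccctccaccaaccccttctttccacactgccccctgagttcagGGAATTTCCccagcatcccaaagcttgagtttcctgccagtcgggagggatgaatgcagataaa

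GGAATTTCC began 91 bases before the start in *CXCL8*, 90 in *CXCL5*, 89 in *CXCL6*, 78 in *CXCL1* and *CXCL3*, and 77 in *CXCL2*. Over 69 bases centred on it, compared position by position without gaps, *CXCL5* and *CXCL6* were identical at 66 positions (95.7%). On this count *CXCL3* and *CXCL1* were identical at 62 (89.9%), *CXCL2* and *CXCL1* at 56 (81.2%) and *CXCL3* and *CXCL2* at 52 (75.4%). Between GGAATTTCC and the start *CXCL2* is shorter than *CXCL1* and *CXCL3*, so bases there were compared out of register. The lower values of *CXCL2* are therefore not a ranking of likeness. *CXCL8* had 27.5% to 37.7% identity to the other 5 on the same count. The longer kappaB consensus, whose matches overlap GGAATTTCC in the 5 windows other than *CXCL8*, was found in 6 of the 8 windows (also in *CCL20*) and in 5.91% of all windows. TGANTCA occurred in *CXCL8* alone among the 8, against 7.71% of all windows. The letters ACAAAG, the core that SOX proteins can bind, occurred in *CCL20* alone among the 8, against 16.1% of all windows. A match describes letters in a window and is not a measured binding site, and a missing match does not show a lack of binding. Bases outside the windows and other motifs were not searched. The study itself reports a *SOX2* binding region assigned to *IL8* in LN229 cells.

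*SOX2* itself, which checks the labels, had a scaled signal of 0.454 and 0.682 in mock and of 0.204 and 0.145 in *SOX2* knockdown. It was thus lower on both knockdown arrays (log2 change -1.69 ± 0.28 SE, limma adjusted p = 0.114), to 0.308 of the mock mean. Here and below a scaled signal is a probe's background-corrected signal divided by the 75th percentile of its array, and S/N is the deposited signal-to-noise ratio. For *SOX2* S/N was 5.17 and 13.6 in mock, and 3.17 and 3.06 in knockdown, just over the limit of 3 used here. Under the alternatives listed below its log2 change was -1.98 to -1.16. Of 27739 features (probes averaged by gene ID), 18378 entered the comparison because S/N exceeded 3 on each array of mock, of knockdown or of both. By the 2-fold cutoff of group means, 1.47% of these were higher and 0.909% lower in *SOX2* knockdown. The groups did not overlap, with both knockdown arrays above both mock arrays, in 21.6% of features, and with both below in 25.7%. In limma, 0% passed an adjusted p of 0.05 and 17.2% had an unadjusted p under 0.05. As the labels mention SW620 (a line from colon cancer) beside LN229, markers of both were checked. All 7 glioma line markers were above background and summed to 94.4 to 119 on the 4 arrays. The brightest was *VIM* (49.8 to 58.1) and the dimmest *GFAP* (0.0997 to 0.164), so the sum rests on the brightest markers. Of 9 colon epithelium markers 3 were above background, and the 9 summed to 0.231 to 0.371. The 3 were *VIL1* (0.0368 to 0.0490) and, above S/N 3 in mock only, *CDX2* (0.0130 to 0.0283) and *LGALS4* (0.0304 to 0.0642). *CDX1*, *EPCAM*, *CEACAM5* and *GPA33* passed S/N 3 on some arrays but not on both arrays of either group. *KRT20* and *CDH17* were below S/N 3 on all arrays.

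Of the 10 chemokine genes, 6 were measured above background, 5 of them on all 4 arrays. *CXCL2* was above background in *SOX2* knockdown only, so it entered through the group in which it was higher. All 6 had higher signals on both *SOX2* knockdown arrays than on either mock array, as did 21.6% of all features. *CXCL3*, *CXCL2* and *IL8* passed the 2-fold cutoff, which 1.47% of all features did in that direction. *CXCL1*, *CCL2* and *CX3CL1* were higher by less. The median log2 change of the 6, *CXCL2* included, was 0.91, with a range of 0.33 to 2.88, beside a median of 0.00 over all features. In RNA from whole cultures, more cells expressing a gene and more transcript per cell cannot be told apart. These counts follow from how the genes were chosen and nothing is read from them about the family. *CXCL5*, *CXCL6*, *CXCL12* and *CCL20* did not reach S/N 3 on both arrays of either group.

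**Figure D1:**
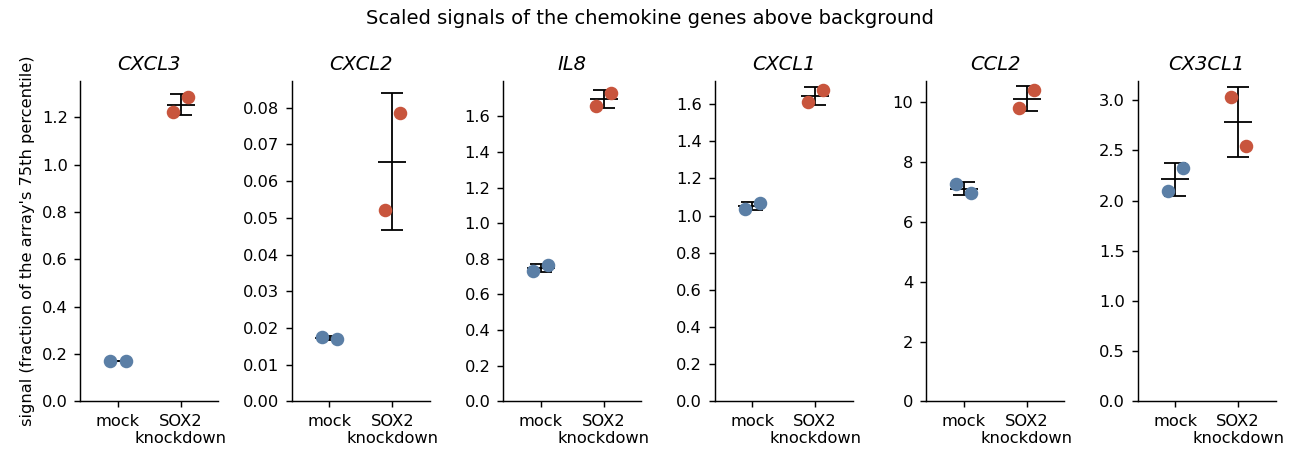
Scaled signals (fraction of the 75th percentile of the array, linear axes from 0) of the 6 chemokine genes above background (*CXCL2* in *SOX2* knockdown only). Each point is 1 array and the bars give the mean and SD of the 2 arrays of a group; for all 6 genes both knockdown points lie above both mock points, with *CXCL3* going from 0.170 to 1.25 on average.

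*CXCL3*, an ELR chemokine that acts on CXCR2, had the largest change of the 6 measured genes. Its scaled signals were 0.170 on both mock arrays, 1.22 on *SOX2* knockdown 1 and 1.28 on *SOX2* knockdown 2. The groups were far apart relative to the spread within each, and S/N was over 21 on every array (21.9 and 21.5 in mock, 63.8 and 91.3 in knockdown). The ratio of the means was 7.38 and the log2 change 2.88 ± 0.12 (SE, n = 2 per group). The chemiluminescent reading before background subtraction moved the same way, from 23707 and 22373 to 54188 and 55232, a ratio of 2.37.

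*IL8*, whose product attracts and activates neutrophils and promotes angiogenesis, gave 0.734 and 0.767 in mock and 1.66 and 1.73 in *SOX2* knockdown. Replicates differed little within each group, with SDs of 0.0234 and 0.0510. The ratio of the means was 2.26 and the log2 change 1.18 ± 0.12. *IL8* was the gene just inside the 2-fold cutoff, and *CXCL1*, at 1.56, the gene just outside it. Its reading before background subtraction was 1.70 times as high in knockdown.

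*CXCL2* encodes an ELR chemokine close in sequence to those of *CXCL1* and *CXCL3*. Its signals were 0.0177 and 0.0170 in mock and 0.0521 and 0.0784 in *SOX2* knockdown. It was not above background on the mock arrays, where S/N was 1.80 and 1.20, whereas S/N was 4.90 and 16.9 on the knockdown arrays. The measured means differed 3.77-fold, and the means of the log2 signals of its probe 3.69-fold. The lowest signals above background on the mock arrays did not exceed those of *CXCL2*, so they set no further bound. As the mock value was not above background, these folds are not lower limits. With the mock signal set to 3 times its own error, *CXCL2* was at least 1.81-fold higher in the background-corrected signals. The 2 knockdown arrays differed more for this gene (SD 0.0186) than mock did (SD 0.000483). Its readings before background subtraction were not higher in knockdown: they were 15625 and 17061 in mock and 14155 and 13461 in knockdown. Over all probes at S/N of 3 or below, the median such reading was 16782 and 16444 in mock and 13836 and 13216 in knockdown. The value of *CXCL2* therefore rests on the background that the scanner software subtracted, and with normexp applied to these readings its log2 change was -0.13. A second probe, annotated to *HPR*, *CXCL2* and *HP*, carried accessions of *HPR* and *HP* and none of *CXCL2*, and stayed at S/N of 0.49 to 2.38.

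*CXCL1*, an ELR chemokine first known as a melanoma growth factor, had signals of 1.04 and 1.07 in mock and of 1.61 and 1.68 in *SOX2* knockdown. Both knockdown arrays were higher, by a ratio of the means of 1.56 (log2 change 0.64 ± 0.12). *CXCL1*, *CXCL2* and *CXCL3* are closely related genes, and their transcript sequences were not compared here. The probe sequences were not used here, so how far 1 probe takes up the transcript of another gene was not tested. The ratios of *CXCL1* and *CXCL3* were 1.56 and 7.38, while *CXCL2* has only the bound of 1.81-fold given above.

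*CCL2*, the main attractant of monocytes, gave 7.27 and 6.96 in mock and 9.82 and 10.4 in *SOX2* knockdown. Its ratio was 1.42 and its log2 change 0.51 ± 0.12, with S/N from 63.5 to 80.3. *CX3CL1* (fractalkine) gave 2.09 and 2.33 in mock and 3.03 and 2.54 in *SOX2* knockdown. The groups of *CX3CL1* were the closest of the 6: knockdown 2 was 1.09 times mock 2 and the SDs were 0.164 and 0.349. The ratio of the means was 1.26 and the log2 change 0.33 ± 0.16.

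Among the 4 genes below background, *CXCL5* had S/N of -1.96 to 0.38 on the 4 arrays, *CXCL6* of -1.08 to 0.80 and *CCL20* of -0.89 to 0.31. The files flag these 3 probes on all 4 arrays and list an error in place of a signal, so no fold change is given. *CXCL12*, whose product keeps stem cells and lymphocytes in place through CXCR4, had 2 probes. The brighter one had S/N of 4.07 on mock 1 and of 2.39 on mock 2, and of 1.67 and 2.65 on the knockdown arrays, and the other stayed between -1.43 and 0.05. The promoter windows of *CXCL5* and *CXCL6* printed above hold the same GGAATTTCC as those of *IL8* and *CXCL3*. For these 4 genes a change was not detectable, which is not to say that there was none.

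**Figure D2:**
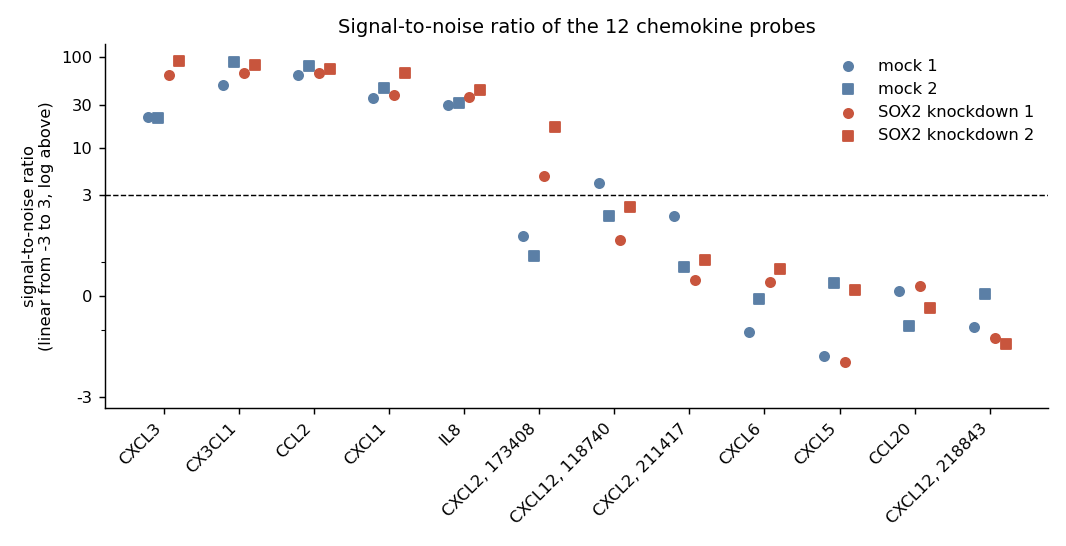
Deposited signal-to-noise ratio (y axis, linear between -3 and 3 and logarithmic above) of the 12 chemokine probes on each array, with the limit of 3 dashed. The probes of 5 genes lie above 20 on all 4 arrays, *CXCL2* crosses the limit between mock and knockdown, and the other 6 probes pass it on at most 1 array.

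By their order in RefSeq, the cluster on chromosome 4 runs *CXCL8*, *CXCL6*, *PF4V1*, *CXCL1*, *PF4*, *PPBP*, *CXCL5*, *CXCL3*, *CXCL2*. Higher signals were not shared by all genes of the cluster. *PF4* and *PPBP*, platelet chemokines, did not reach S/N 3 on any array. *PF4V1* did on all 4, and its groups overlapped (0.425 and 0.321 in mock, 0.302 and 0.467 in knockdown). Of the coding genes flanking the cluster, which were looked at after the values of the chemokines were seen, *MTHFD2L* had overlapping groups at a ratio of 1.13. *EREG*, an EGF-family growth factor, gave 0.0417 and 0.0170 in mock and 0.0651 and 0.0703 in knockdown (log2 change 1.35 ± 0.45, limma adjusted p = 0.256). *AREG* and *RASSF6* were below S/N 3 on all arrays, *ALB* and *AFM* passed it on 1 array each, and *AFP* had overlapping groups.

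Of 36 further ligand genes 34 were on the arrays and 13 were above background, as 12 features since *CCL14* and *CCL15* share one. Of these, 0 passed the 2-fold cutoff in either direction, against 1.47% and 0.909% of all features, and their median log2 change was 0.00. The 3 with the largest changes were *CXCL16*, *CCL13* and *XCL1*. *CXCL16*, a membrane-bound chemokine that also serves as a scavenger receptor, was lower, with 0.271 and 0.294 in mock and 0.166 and 0.172 in knockdown (log2 change -0.74 ± 0.13, limma adjusted p = 0.117). *CCL13*, a monocyte attractant, had a log2 change of 0.33 ± 0.18 (adjusted p = 0.463), and *XCL1*, a T cell attractant, of -0.27 ± 0.30 (adjusted p = 0.767), with overlapping groups. In limma 0 of the 13 genes had an adjusted p under 0.05, and 1 had an unadjusted p under 0.05, against 17.2% of all features.

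A different order of the arrays marked most of these ligands. In 11 of the 13 genes both mock 1 and *SOX2* knockdown 2 lay above both mock 2 and *SOX2* knockdown 1, as for *CCL1* (0.848 and 0.745 against 0.482 and 0.563) and *CCL27* (0.942 and 0.876 against 0.535 and 0.573). The same order was seen in 5 of 10 receptor genes above background, and in 25.4% of all features. It is impossible by construction for the 6 selected genes, in which both knockdown arrays lay above both mock arrays. This order crosses the groups, and its source was not tested. Over all features, the deviations of same-numbered arrays from their group means had a correlation of -0.50.

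**Figure D3:**
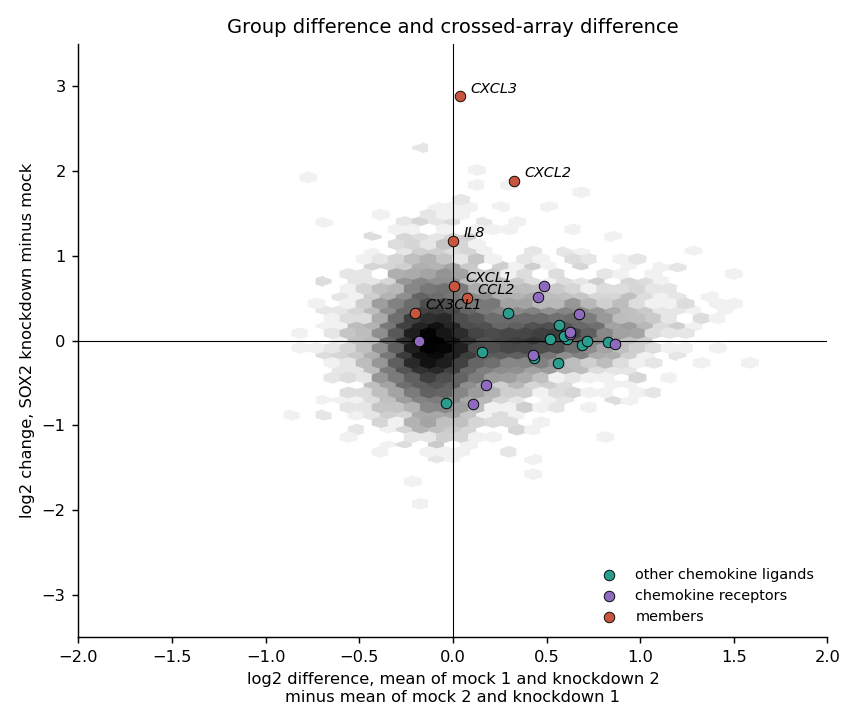
Log2 change between the groups (y axis) against the log2 difference between the mean of mock 1 and *SOX2* knockdown 2 and the mean of mock 2 and *SOX2* knockdown 1 (x axis). Grey cells count all 18378 features on a log shade. The selected chemokines lie near 0 on the x axis, with *CXCL2* slightly to the right and *CX3CL1* slightly to the left. In 11 of 13 other ligand genes and 5 of 10 receptor genes both arrays of the first pair lie above both of the other.

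Of the receptors given above for the selected chemokines, only *CXCR1* was above background, and *CCR6* was not matched on the arrays. Of 23 receptor genes 22 were on the arrays and 10 were above background. *CXCR1*, a receptor of IL8, had overlapping groups (0.303 and 0.181 in mock, 0.207 and 0.294 in knockdown). So did *ACKR1*, an atypical receptor that was also above background (0.156 and 0.214 in mock, 0.177 and 0.188 in knockdown). *CXCR2*, the shared receptor of the ELR chemokines, passed S/N 3 on 1 array of each group, and *CXCR4*, *CCR2* and *CX3CR1* passed it on none. The largest changes were those of *ACKR4*, *CCR3* and *ACKR3*. *ACKR4*, a decoy receptor of CC chemokines, gave 0.348 and 0.351 in mock and 0.192 and 0.225 in knockdown (log2 change -0.75 ± 0.14, limma adjusted p = 0.130). *ACKR3*, a scavenger of CXCL12, had a log2 change of -0.52 ± 0.15 (adjusted p = 0.218), and *CCR3*, an eosinophil receptor, of 0.64 ± 0.26 (adjusted p = 0.328). By the 2-fold cutoff 0 of the 10 receptor genes were called, against 1.47% of all features higher and 0.909% lower. In limma 0 had an adjusted p under 0.05, and 2 had an unadjusted p under 0.05, both lower, against 17.2% of all features.

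Among inducers and regulators of chemokine transcription, genes of the NF-kappaB pathway had the largest changes. Of 36 genes 34 were on the arrays and 30 above background, of which 4 were over 2-fold higher (1.47% of all features were) and 0 lower. The list was chosen with earlier results of these data known, so its counts here and below are a description. *TNFAIP3*, which encodes the NF-kappaB inhibitor A20, gave 0.217 and 0.215 in mock and 0.625 and 0.600 in *SOX2* knockdown (ratio 2.84, limma adjusted p = 0.0701). *NFKB2*, the precursor of the p52 subunit, gave 0.108 and 0.161 in mock and 0.310 and 0.275 in knockdown (ratio 2.17, adjusted p = 0.140). *NFKBIE*, an inhibitor of the I-kappaB family, gave 1.64 and 1.91 in mock and 3.83 and 3.75 in knockdown (ratio 2.13, adjusted p = 0.101). *MAP3K14*, the kinase NIK of the noncanonical pathway, gave 0.618 and 0.666 in mock and 1.41 and 1.24 in knockdown (ratio 2.06, adjusted p = 0.101). All 4 were higher on both knockdown arrays, and none passed the adjusted threshold. With each array scaled to its median all 4 passed it, but so did 669 features in all, against 0 in the main fit. Under that scaling *SOX2* and the selected chemokine genes above background all had the same SE (0.283). Passing there is therefore not read as evidence from the spread of each gene. Without mock 1, *TNFAIP3* alone of the list was over 2-fold, and with normexp 0 were.

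By role, 1 of 5 measured NF-kappaB subunit or precursor genes, 2 of 5 genes for I-kappaB family proteins or A20, and 1 of 3 kinases were over 2-fold higher. Of 6 C/EBP or AP-1 factors 0 were, although 3 were higher and 1 lower on both knockdown arrays. A further 3 genes exceeded 1.5-fold and are named after their values were seen: *CEBPB* (1.78), *RELB* (1.69) and *CEBPD* (1.59). *RELA* was at 0.989 and *NFKB1* at 1.05, with overlapping groups. Of the inducing cytokines, *TNF*, *LTA* and *IL1A* were not above background, *IL1B* was at 1.02 with overlapping groups, and *IL17F* was at 0.935, lower on both knockdown arrays (limma adjusted p = 0.809). The 6 AU-rich element binding proteins, which control how long chemokine transcripts last, ranged from 0.869 to 1.36. Over the list, 12 of 30 genes were higher and 6 lower on both knockdown arrays, against 21.6% and 25.7% of all features. The median log2 change was 0.07, and 11 had an unadjusted p under 0.05 (10 higher and 1 lower) against 17.2% of all features. In limma 0 had an adjusted p under 0.05.

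Genes for the processing and presentation of chemokines were lower or overlapping. Of 11 genes 8 were above background, 4 were lower on both knockdown arrays and 0 higher (25.7% and 21.6% of all features were), and 0 passed the 2-fold cutoff. *ADAM10*, a protease that sheds CX3CL1 and CXCL16 from the membrane, gave 2.30 and 2.21 in mock and 1.58 and 1.48 in *SOX2* knockdown (log2 change -0.56 ± 0.12, limma adjusted p = 0.154). *ADAM17*, a sheddase of the same family, had a log2 change of -0.29 ± 0.15 (adjusted p = 0.420), and *ELANE*, the neutrophil elastase, of -0.29 ± 0.14 (adjusted p = 0.396). The syndecans *SDC1*, *SDC2* and *SDC4*, which carry heparan sulphate that binds chemokines, had overlapping groups, and *SDC3* was lower on both knockdown arrays at a ratio of 0.890 (limma adjusted p = 0.606). In limma 0 of the 8 had an adjusted p under 0.05, and 1 had an unadjusted p under 0.05, against 17.2% of all features.

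**Figure D4:**
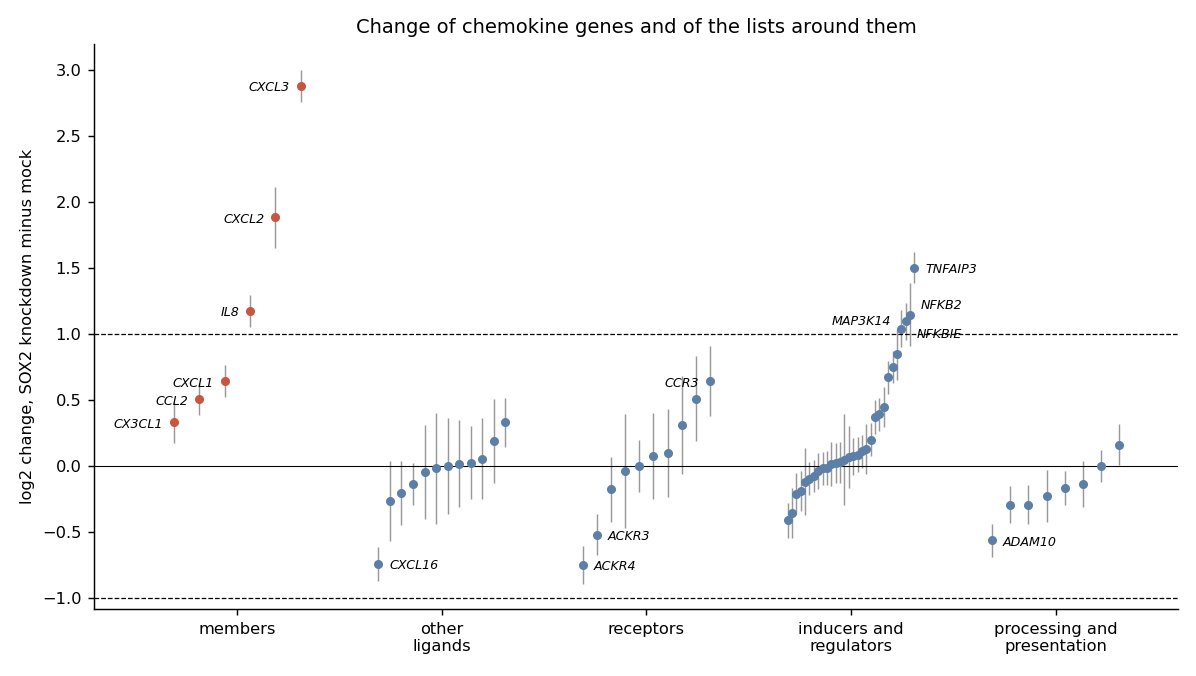
Log2 change (*SOX2* knockdown minus mock, y axis) with its SE for each feature above background in the 10 selected genes (red, where 6 are shown) and in 4 lists around them (blue), sorted within each list. Dashed lines mark 2-fold; *IL8*, *CXCL2*, *CXCL3* and 4 regulators lie above the upper line and no feature below the lower one.

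Leukocyte markers give a measure of other cells that make chemokines. Of 9 such markers on the arrays 4 were above background, *PTPRC*, *LYZ* and *MS4A1* were below S/N 3 on all 4 arrays, and the summed signal was 0.669 to 0.813 in mock and 0.698 to 0.842 in *SOX2* knockdown. Of 5 endothelial markers only *KDR* was above background, and the summed signal was 0.193 to 0.196 in mock and 0.103 to 0.125 in knockdown. Most of that difference was *KDR* itself, with means of 0.123 and 0.0538 (ratio 0.439, limma adjusted p = 0.101). *IL6*, an NF-kappaB-driven cytokine, gave 0.0530 and 0.0665 in mock and 0.624 and 0.614 in knockdown, a ratio of 10.4.

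The features most like the 3 chemokines over 2-fold were ranked by the root mean square difference of log2 signals over the 4 arrays, after the mock mean of each was set to 0. For *IL8* they were the features with the array symbols *RAGE* (accession of *MOK*, difference 0.02), *TNFAIP2* (0.03) and *KCNE4* (0.04), among 13588. For *CXCL3* they were *PTX3* (0.11), *LOC144501* (0.25) and *CYP1A1* (0.33). *PTX3* encodes a secreted pattern recognition protein and had a ratio of 7.18. For *CXCL2*, among 14624 features, they were *TRIB3* (0.18), *HMFN0839* (accession of *GPAT3*, 0.23) and *CHAC1* (0.23). As *CXCL2* was not above background in mock, its differences and ranks rest on a mock level that was not measured. The likeness over 4 arrays is a description of these arrays only.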

How the data were processed

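Biotin-labelled RNA of LN229 cells was read on 4 Applied Biosystems arrays, 2 per group. Groups come from the source names and replicate numbers from the titles of the labels. The deposited scanner files hold a normalized intensity (signal) per probe, its standard error, the chemiluminescent reading before background subtraction and, per the file headers, an S/N score. The scanner software is not given in the sources used here. The authors also deposited a table of linear ratios per probe, scaled per array and divided by the median of each probe over the arrays, with a floor of 0.01, which served as an alternative.

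A flag of at least 5000 removed 210 probes. Signals of probes with the same gene ID were averaged, expressed relative to the 75th percentile over the features of that array, and floored at 0.01. Features with S/N over 3 on both arrays of a group were kept (18378 of 27739). Where a symbol had several features the brightest was used. Ratios are of linear means, and log2 changes, SEs and p-values come from limma 3.58.1 in R 4.3.3 (two-sided, Benjamini-Hochberg over all features kept, no block), which was tested on simulated data. Python 3.11.15 was used for the rest. Precision is limited by the number of arrays, and p-values measure only the spread between these samples. The genes, lists and tests were chosen with earlier results of these data known. Named are *SOX2*, the 10 selected genes, in each of the 4 lists every feature over 2-fold and the 3 with the largest log2 change, and the 3 features most like *IL8*, *CXCL2* and *CXCL3*; all other genes named were chosen after their values were seen, or serve as markers or neighbours of the cluster. Of the list entries, *CXCL17*, *CCL4L1*, *CCR6*, *IL17A* and *IL17RA* were not matched to a symbol on the arrays. Promoter sequences are those of RefSeq (GRCh38.p14), and no other coordinates are given since the files name no build. The alternatives were quantile and median scaling, the authors' table, normexp with an offset of 50, a floor of 0.05, no S/N filter or one on all 4 arrays, single probes, cutoffs of 1.5-fold and 3-fold, a variance trend, a block for the replicate number, and each array left out in turn.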

Additional observations from a re-analysis of the deposited data

How the results depend on the processing

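*IL8*, *CXCL3*, *CXCL1*, *CCL2* and *CX3CL1* kept their direction under all 11 alternatives tried for each, with log2 changes of 1.14 to 1.21, 2.06 to 2.92, 0.61 to 0.67, 0.46 to 0.61 and 0.20 to 0.46. *CXCL2*, near background, reversed to -0.13 with normexp on the reading before background subtraction, was 0.35 with a floor of 0.05, and was 1.59 to 2.18 when 1 array was left out. Its measured 3.69-fold became at least 1.81-fold with the mock signal set to 3 times its own error. The 2-fold count of the selected genes was 3, and 2 to 4 under the alternatives.

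All features over 2-fold numbered 438, and 176 with normexp, 288 with a floor of 0.05, 1055 without the S/N filter, 245 with S/N over 3 on all 4 arrays, 1812 at 1.5-fold, 94 at 3-fold and 624 to 934 with 1 array left out (934 without mock 1, 675 without mock 2, 885 without *SOX2* knockdown 1). Ligands outside the selection numbered 0, and 1 without the filter (*CCL16*), 1 at 1.5-fold (*CXCL16*) and 0 to 1 with 1 array left out (*CCL23* without mock 2, *CCL16* without *SOX2* knockdown 1). Receptors numbered 0, and 2 at 1.5-fold (*ACKR4*, *CCR3*) and 0 to 2 with 1 array left out (*CCR4* and *CCR8* without *SOX2* knockdown 1). Regulators numbered 4, and 0 with normexp, 7 at 1.5-fold, 0 at 3-fold and 1 to 5 with 1 array left out, 1 without mock 1. With 1 array left out, the lone array of a group is assumed to vary like the other group.

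In limma 0 features passed an adjusted p of 0.05 (3158 had an unadjusted p under 0.05), whereas 669 did with median scaling, 639 with the authors' table, 240 with a variance trend and 3 when S/N had to exceed 3 on all 4 arrays. Under median scaling and with the authors' table these held *NFKB2*, *NFKBIE*, *TNFAIP3* and *MAP3K14*, and under the variance trend the last 3 of these. Under median scaling *SOX2* and the selected chemokine genes above background all had the same SE, 0.283. With the authors' table all of them had 0.281. In the main fit their SEs ran from 0.12 for *CXCL3* to 0.28 for *SOX2*. With a shared SE a call depends on the size of the change and not on the spread of that gene. Calls under those settings are therefore not read as evidence for single genes. Why the SEs and counts differed between settings was not tested. The replicate block gave 0, as did a crossed replicate block (mock 1 with *SOX2* knockdown 2), which was added after seeing the data because same-numbered arrays correlated at -0.50. The block changed no other call.

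Signals near background limit *CXCL2*, *CXCL5*, *CXCL6*, *CXCL12* and *CCL20*, and 2 arrays per group limit every value.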
